A study of Rattus norvegicus with 5 samples.

Results

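Voltage-gated sodium, calcium and HCN channel genes were examined in rat dorsal horn after nerve injury. The set holds every row of the gene count table whose symbol begins with Scn followed by a number and a or b, with Cacna, Cacnb or Cacng, or with Hcn and a number, which gave 44 of the 17321 genes in the table. Of these, 24 encode pore-forming subunits and 20 encode auxiliary subunits. Total RNA came from the dorsal horn of lumbar cord (L4-L6) of Sprague Dawley rats on day 9 after surgery, from 3 CCI libraries and 2 SHAM libraries. CCI commonly stands for chronic constriction injury, in which loose ligatures are tied round a peripheral nerve to model neuropathic pain; SHAM animals have surgery that leaves the nerve uninjured. The labels give no further genotype, age, sex or drug, and leave unsaid whether libraries came from different animals. The p-values therefore cover only the spread between these libraries, which may be technical.

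Sodium channels carry the upstroke of the action potential. Calcium channels couple depolarisation to transmitter release and gene activity, and HCN channels open on hyperpolarisation and set resting excitability and rhythm. The pore subunit of a sodium or calcium channel works with auxiliary subunits that control its delivery to the membrane and its gating, and the drugs gabapentin and pregabalin, used against neuropathic pain, bind the auxiliary alpha2delta subunits. In rat models of nerve injury the alpha2delta subunit encoded by Cacna2d1 is known for its increase in injured sensory neurons and in dorsal horn.

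The libraries held 20053353 to 23673198 estimated counts, of which the channel genes took 0.404% to 0.454%. CCI 3 carried the most ribosomal RNA, at 16.0% of its counts, where CCI 1 and CCI 2 had 2.18% to 2.45% and the SHAM libraries 2.30% to 2.71%. On the first principal component, with 62.3% of the variance, CCI 1 stood at -1.65, between CCI 2 and CCI 3 at -38.4 and -29.5 and SHAM 1 and SHAM 2 at 37.8 and 31.7. All 7 excitatory and all 10 inhibitory dorsal horn marker genes in the table were detected well enough to be tested, and none was called. Motor neuron markers were detected too, at a summed level of 144, 73.3 and 113 CPM (counts scaled to the size of the library) in CCI 1, CCI 2 and CCI 3, against 532 and 338 CPM in SHAM 1 and SHAM 2, so all 5 libraries held RNA of genes known from the ventral horn.

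No channel gene passed the test between CCI and SHAM. Of the 44, 39 had 10 or more counts in at least 2 libraries and were tested, 21 pore and 18 auxiliary subunits, and 0 of 39 met both thresholds of a call, 0.05 for the adjusted p and 1.5 for the fold (edgeR's quasi-likelihood test with Benjamini-Hochberg adjustment), where 2.84% of all 13511 tested genes were called, 2.58% higher and 0.259% lower. The smallest adjusted p belonged to Cacna2d1 (0.0631, 1.51-fold above SHAM) and Scn4b (0.0759, 0.636 of SHAM). At an unadjusted p of at most 0.05 there were 9 of 39, which is 23.1% of the tested members against 15.9% of all tested genes. Of these, 5 were higher in CCI (Cacna2d1, Cacnb3, Scn3b, Scn3a and Cacng5), where 9.64% of all tested genes were, and 4 were lower (Scn4b, Scn1a and Cacna2d3 among them), where 6.31% were. By kind these were 2 of 21 pore subunits and 7 of 18 auxiliary subunits. The groups did not overlap for 15 of 39 members (38.5%), against 36.6% of all tested genes, with 7 members higher in CCI (18.6% of all tested genes) and 8 lower (18.0%). The median log2 fold change was 0.13 over the 39 members, 0.22 over pore subunits and 0.03 over auxiliary subunits, against 0.01 over all tested genes.

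The number of calls depended on the test. The likelihood ratio test of edgeR and DESeq2 each called 3 channel genes, Cacna2d1 and Cacnb3 higher and Scn4b lower. The same 3 were called with libraries scaled to total count alone, and Cacna2d1 alone without a low-count filter. Leaving out CCI 1 gave 4 calls, these 3 and Scn7a higher, while leaving out SHAM 1 cut the members at an unadjusted p of at most 0.05 to 3 (Cacna2d1 and Scn4b among them) and the share of all genes to 8.68%. For 18 of the 39 members the 95% interval of the fold change lay inside 1.5-fold in both directions, and for the other 21 it reached past 1.5-fold in at least 1 direction, so changes of that size were not resolved for them.

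**Figure D1:**
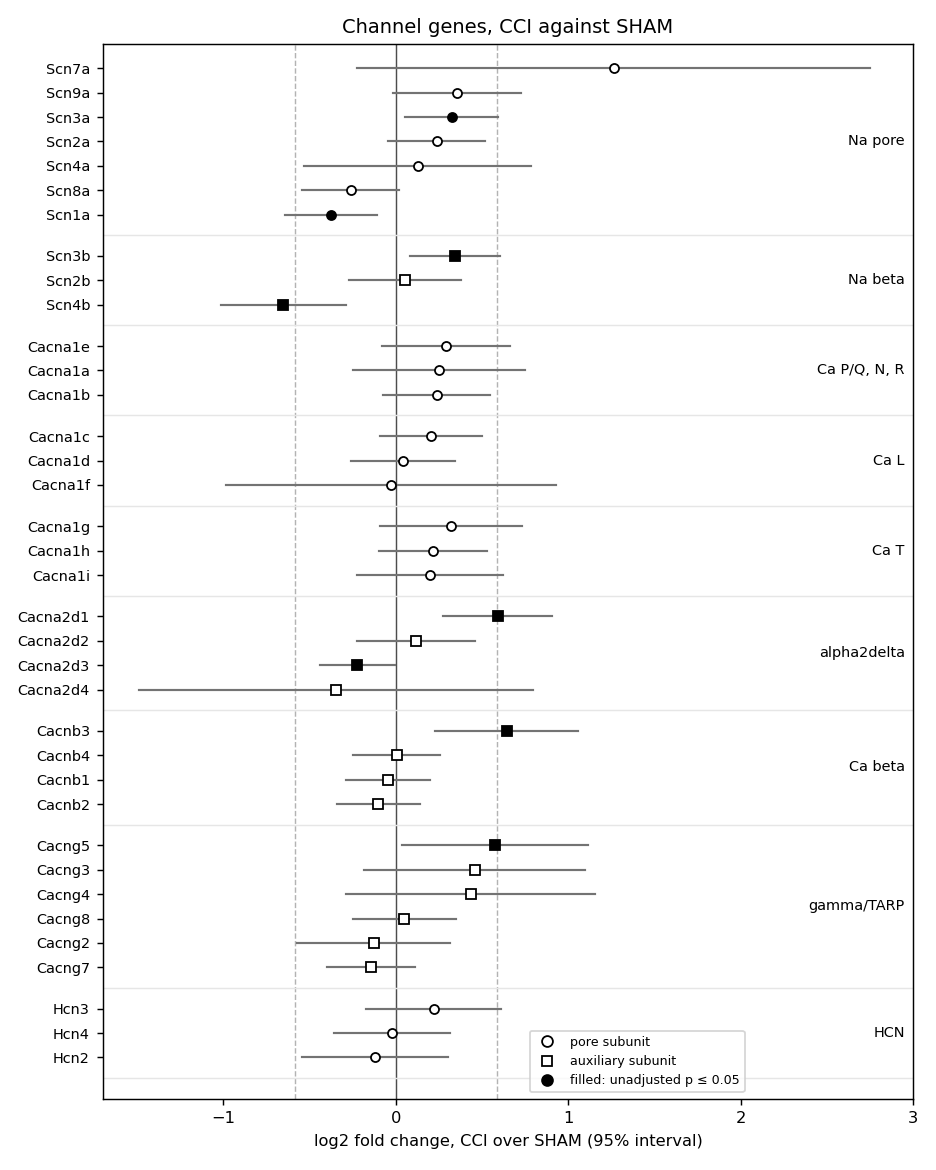
Log2 fold change of CCI over SHAM (x axis) with its 95% interval for 36 of the tested channel genes (y axis), grouped by subfamily. Circles are pore subunits, squares auxiliary subunits, filled symbols the 8 drawn genes with an unadjusted p of at most 0.05, and dashed lines a fold of 1.5 either way. The filled symbols run from Scn4b at -0.65 to Cacnb3 at 0.64.

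The sodium channel pore genes of the dorsal horn were led by Scn1a, Scn8a and Scn2a. Scn1a encodes the main sodium channel of fast-spiking inhibitory neurons, Scn8a that of nodes of Ranvier and axon initial segments, and Scn2a one of young and unmyelinated axons. Measured per length, in the deposited TPM scaled by trimmed mean of M-values, Scn1a stood at 100.3 ± 2.18 in CCI and 128 ± 17.9 in SHAM, Scn8a at 73.3 ± 8.81 and 86.3 ± 4.49, and Scn2a at 43.8 ± 4.43 and 36.4 ± 4.26 (SD, n = 3 CCI and 2 SHAM). Scn3a and Scn9a averaged 16.0 and 10.2 per length over the 5 libraries, Scn7a 5.4, and Scn4a, the skeletal muscle channel, 0.470.

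Scn1a was lower in every CCI library than in either SHAM library. Its level was 717, 683 and 698 CPM in CCI, against 999 and 818 CPM in SHAM (log2 fold change -0.38, SE 0.12, 95% interval -0.64 to -0.11, adjusted p = 0.156). Most of the spread lay between the SHAM libraries, and the difference did not pass the test. Scn8a had 432, 341 and 414 CPM in CCI, against 492 and 458 CPM in SHAM (log2 fold change -0.26, SE 0.12, adjusted p = 0.346).

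Scn3a, Scn2a, Scn9a and Scn4a had positive fold changes that did not pass. Scn3a, the sodium channel most abundant in embryonic brain, had 90.3, 108 and 98.3 CPM in CCI, against 73.2 and 84.6 CPM in SHAM (log2 fold change 0.32, SE 0.12, adjusted p = 0.219). Scn2a had 283, 344 and 306 CPM in CCI, against 242 and 286 CPM in SHAM, with CCI 1 below SHAM 2 (log2 fold change 0.24, SE 0.12, adjusted p = 0.390). Scn9a encodes the channel whose loss abolishes pain in humans. It had 93.7, 68.4 and 99.6 CPM in CCI, against 70.3 and 66.2 CPM in SHAM, and CCI 2 lay between the SHAM libraries (log2 fold change 0.35, SE 0.16, adjusted p = 0.335). Scn4a (0.13, SE 0.29) was low, with 72 counts in its highest library, and its 95% interval spanned 0. Estimated counts of Scn1a, Scn2a, Scn3a, Scn8a and Scn9a were fractional, so reads were divided between these similar sequences or other rows. Their levels are uncertain to that extent. Such values were found in 16 members, 15 of them among the 39 tested, against 20.5% of all tested genes.

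Scn7a had the highest fold change of the set and the widest spread. This atypical family member is known as a sensor of extracellular sodium in glia and is also expressed by Schwann cells. It had 18.5, 34.9 and 60.9 CPM in CCI, against 15.2 and 16.5 CPM in SHAM (2.40-fold, log2 fold change 1.26, SE 0.55, 95% interval -0.22 to 2.75, adjusted p = 0.375). CCI 1 was just above the SHAM libraries, while CCI 3 was far above them. The summed level of 10 Schwann cell markers, none at 0, ordered the CCI libraries in the same way, at 92.2, 285 and 586 CPM in CCI, against 79.9 and 92.8 CPM in SHAM. That of 11 fibroblast markers was 145, 834 and 785 CPM in CCI, against 133 and 193 CPM in SHAM. Their part in the Scn7a level was not tested. Without CCI 1, Scn7a was called (log2 fold change 1.59, adjusted p = 0.0221), and without CCI 3 its log2 fold change was 0.75.

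**Figure D2:**
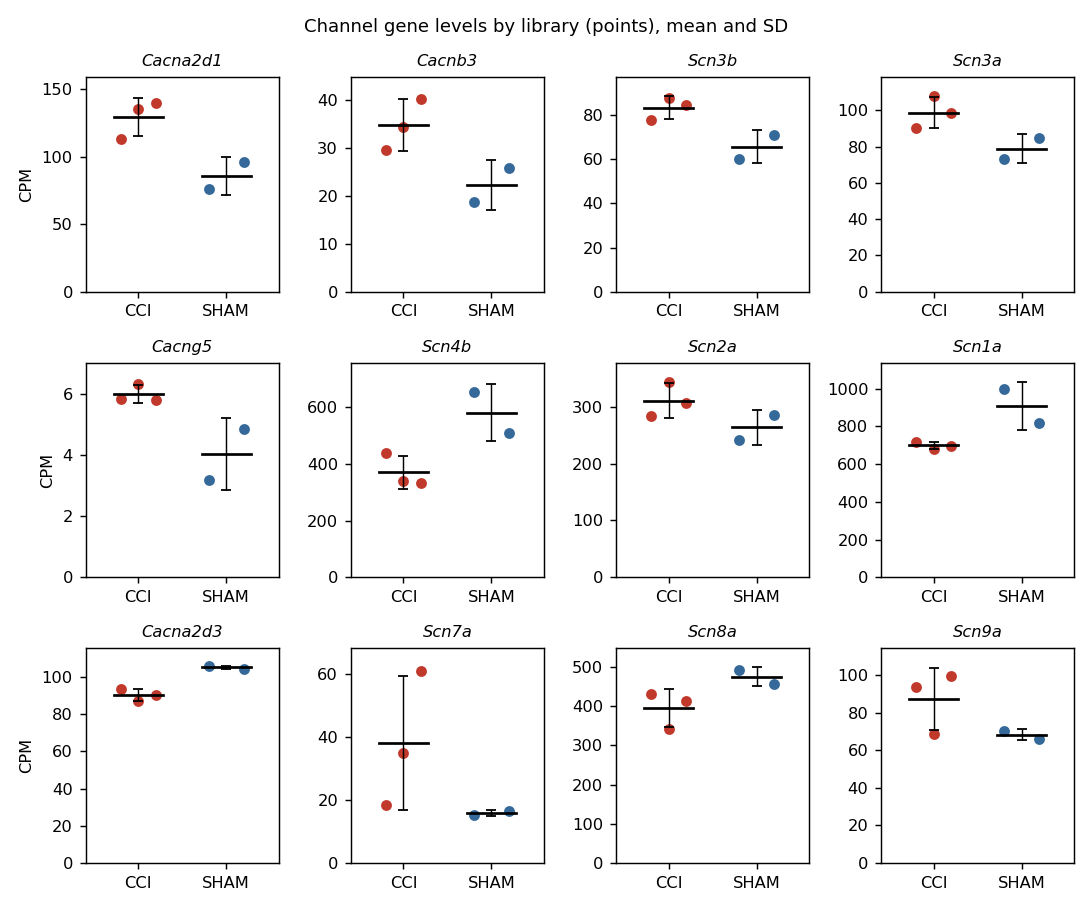
Level in CPM (y axis, from 0) of 12 channel genes in the 3 CCI libraries (red, left) and the 2 SHAM libraries (blue, right) of each panel. Points are libraries, bars the mean and SD. Cacna2d1 sits at 113 to 139.5 CPM in CCI and 76.0 to 95.9 CPM in SHAM, and Scn4b at 332 to 439 CPM in CCI and 510.5 to 654 CPM in SHAM.

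Of the sodium channel beta subunits, Scn4b was lower and Scn3b higher in CCI with no overlap of the groups, and neither passed the test. Scn4b, whose subunit acts as an open-channel blocker and gives the resurgent sodium current of fast-firing neurons, had 439, 339.6 and 332 CPM in CCI, against 654 and 510.5 CPM in SHAM (log2 fold change -0.65, SE 0.16, 95% interval -1.02 to -0.29, adjusted p = 0.0759). All 3 CCI libraries lay below both SHAM libraries. It was called by the likelihood ratio test (adjusted p = 0.00669) and by DESeq2 (adjusted p = 0.00223). With 1 library left out its log2 fold change ran from -0.83 to -0.46 and its adjusted p from 0.0126 without CCI 1 to 0.544 without SHAM 1.

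Scn3b had 77.5, 87.6 and 84.5 CPM in CCI, against 60.3 and 71.0 CPM in SHAM (log2 fold change 0.34, SE 0.11, adjusted p = 0.185), while Scn2b overlapped fully at 46.2 to 58.9 CPM in CCI and 45.4 to 57.1 CPM in SHAM (log2 fold change 0.05, SE 0.14).

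Scn4b and Scn1a were lower in CCI, as were the summed motor neuron, general neuron and oligodendrocyte markers. Of 8 motor neuron markers 7 were tested and 4 fell, Chat, Slc5a7, Mnx1 and Chodl, with a median log2 fold change of -1.96, and none was at 0 in every library. The summed level of 10 general neuron markers was 6539, 6025 and 6012 CPM in CCI, against 7451 and 7223 CPM in SHAM, with none called and a median log2 fold change of -0.19. Oligodendrocyte markers summed to 26285 to 31768 CPM in CCI and 36861 to 37532 CPM in SHAM, with a median log2 fold change of -0.34. Sums of excitatory and inhibitory dorsal horn markers overlapped between the groups, with medians of 0.18 and 0.15. Between the SHAM libraries, Scn4b and Scn1a were higher in SHAM 1, which also had the higher motor neuron, general neuron and oligodendrocyte sums. The part of motor neurons or of any other cell type in these levels was not tested. In tissue RNA, fewer cells of a type and less RNA per cell cannot be told apart.

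**Figure D3:**
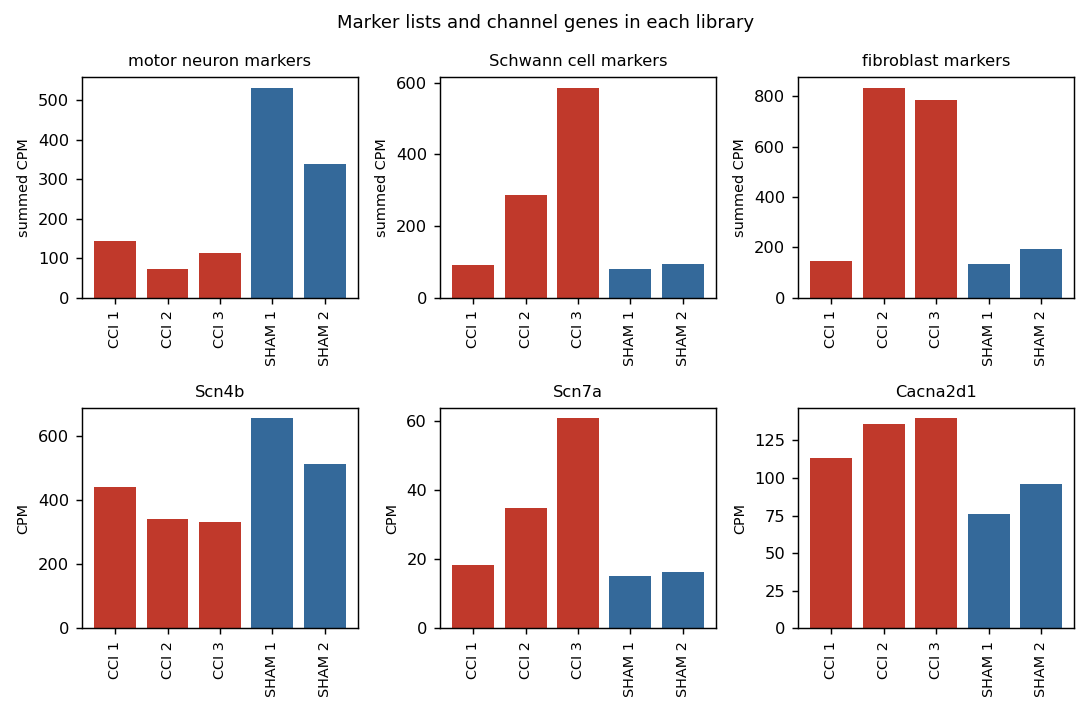
Summed CPM of motor neuron, Schwann cell and fibroblast markers (upper row) and CPM of Scn4b, Scn7a and Cacna2d1 (lower row) in each library, CCI in red and SHAM in blue, axes from 0. Schwann cell markers, Scn7a and Cacna2d1 all stand highest in CCI 3, at 586, 60.9 and 139.5 CPM. Among the CCI libraries all are lowest in CCI 1, where Cacna2d1 is 113 CPM.

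Cacna2d1 was higher and Cacna2d3 lower in every CCI library than in either SHAM library, and neither passed the test. Cacna2d1 encodes the alpha2delta subunit with the highest affinity for gabapentin. It had 113, 136 and 139.5 CPM in CCI, against 76.0 and 95.9 CPM in SHAM, means of 129 ± 14.3 and 86.0 ± 14.0 CPM (SD, n = 3 and 2). The log2 fold change was 0.59 (SE 0.14, 95% interval 0.27 to 0.91, unadjusted p = 0.00225, adjusted p = 0.0631). Every CCI library exceeded both SHAM libraries, and a two-sided exact permutation test on its log2 CPM reached p = 0.1, the lowest possible with 10 splits of 5 libraries. Its fold was 1.51, just past the fold threshold, so its adjusted p decided the call. The likelihood ratio test gave an adjusted p of 0.00741 and DESeq2 one of 0.00472. With 1 library left out the log2 fold change ran from 0.43 to 0.76 and the adjusted p from 0.0217 without CCI 1 to 0.513 without SHAM 1. With CCI 1 as the only CCI library, the log2 fold change against SHAM was 0.38, and a single library has no spread of its own. Schwann cell marker sums were 92.2, 285 and 586 CPM in CCI 1, CCI 2 and CCI 3, the same order as Cacna2d1, against 79.9 and 92.8 CPM in SHAM. Fibroblast marker sums were 145, 834 and 785 CPM in CCI, against 133 and 193 CPM in SHAM. Microglial genes were higher in all 3 CCI libraries: 8 of 11 markers rose, none was at 0, and their summed level was 1204, 1297 and 1152 CPM in CCI, against 365 and 414 CPM in SHAM. The part of Schwann cells, fibroblasts or microglia in the Cacna2d1 level was not tested.

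Cacna2d3, linked to heat pain in flies and mice, was lower in CCI by a small margin. It had 93.3, 86.8 and 90.1 CPM in CCI, against 106 and 105 CPM in SHAM (log2 fold change -0.22, SE 0.10, adjusted p = 0.30). Cacna2d2 overlapped, at 57.0 to 76.5 CPM in CCI and 54.8 to 68.4 CPM in SHAM (log2 fold change 0.12, SE 0.15). Cacna2d4, a subunit of retinal photoreceptors, was just inside the count filter with 8, 25 and 16 counts in CCI and 27 and 13 in SHAM, and its interval of -1.49 to 0.80 shows that nothing could be resolved there.

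Within the alpha2delta family the mean shares of Cacna2d1 and Cacna2d3 stood in a different order in the 2 groups. Per length, Cacna2d1 took 40.9% ± 3.44 of the family's level in CCI and 30.0% ± 2.43 in SHAM, and Cacna2d3 took 34.9% ± 2.51 in CCI and 45.2% ± 4.07 in SHAM (SD, n = 3 and 2). Neither share overlapped between groups, where by level in CPM 36.6% of all tested genes had no overlap. Shares of a total are linked, so a higher Cacna2d1 share lowers the others. The family's summed level per length averaged 99.5 in CCI and 88.2 in SHAM. In CCI 1 the shares were nearly equal, at 37.2% for Cacna2d1 and 37.6% for Cacna2d3, the same order as in both SHAM libraries. A permutation of these shares could not have given a p below 0.1.

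**Figure D4:**
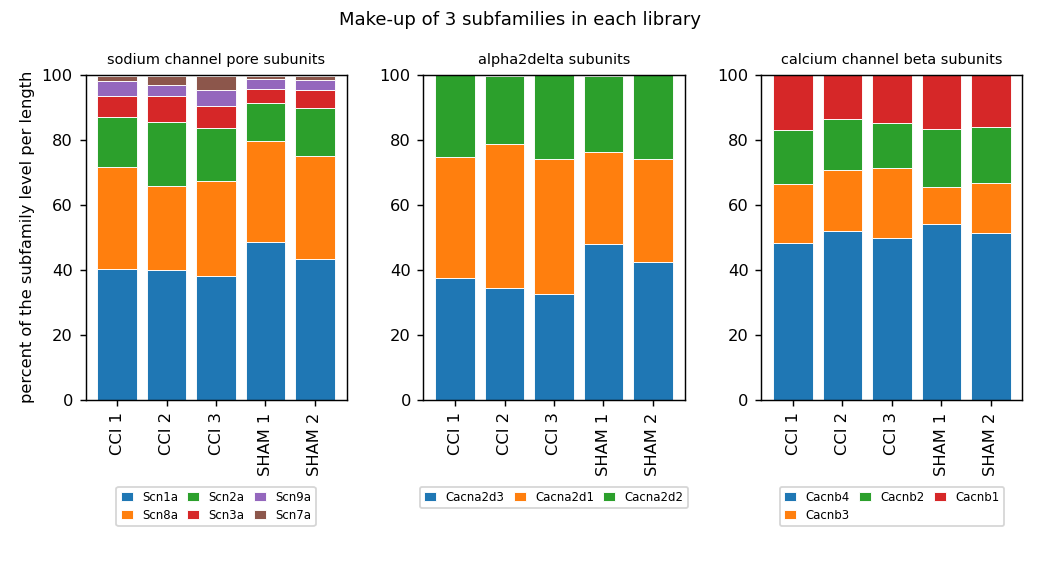
Share of each gene (percent, y axis) in the summed level per length of its subfamily, in each library, for sodium pore, alpha2delta and calcium beta subunits; genes averaging under 0.5% of a subfamily are not drawn. Scn1a takes 38.1% to 40.2% of sodium pore level in CCI and 43.4% to 48.7% in SHAM, and Cacna2d1 37.2% to 44.0% of alpha2delta level in CCI and 28.3% to 31.7% in SHAM.

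Shares among the sodium channel pore genes also differed between the groups. Scn1a made up 39.4% ± 1.15 of the sodium pore level per length in CCI and 46.1% ± 3.69 in SHAM, while Scn2a made up 17.2% ± 2.21 in CCI and 13.2% ± 2.34 in SHAM. Scn3a took 6.91% ± 0.798 in CCI and 4.99% ± 0.806 in SHAM (SD, n = 3 and 2). None of these shares overlapped between the groups, whereas those of Scn8a did, at 25.8% to 31.3% in CCI and 31.0% to 31.4% in SHAM. Shares of a total are linked, so a lower Scn1a share raises the others, and in CPM the groups overlapped for Scn2a. By level in CPM, the groups did not overlap for 36.6% of all tested genes. The shares were not tested.

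The cytoplasmic calcium channel beta subunits bind the pore subunit and bring it to the membrane. Cacnb3, a beta subunit of neuronal N-type channels, had 29.6, 34.3 and 40.2 CPM in CCI, against 18.6 and 25.9 CPM in SHAM (1.56-fold, log2 fold change 0.64, SE 0.18, 95% interval 0.23 to 1.06, adjusted p = 0.122). Each CCI library was above both SHAM libraries. It was called by the likelihood ratio test (adjusted p = 0.0303) and by DESeq2 (adjusted p = 0.0354). Leaving out 1 library gave an adjusted p from 0.0448 without CCI 1 to 0.626 without SHAM 1. Cacnb4, the most abundant of them and the gene mutated in the lethargic mouse, had 122, 147 and 143 CPM in CCI, against 139 and 134 CPM in SHAM (log2 fold change 0.00, SE 0.11, 95% interval -0.25 to 0.26). Cacnb1 (log2 fold change -0.05, SE 0.11) and Cacnb2 (-0.10, SE 0.11) likewise had intervals inside 1.5-fold.

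None of the 9 tested calcium channel pore genes reached an unadjusted p of 0.05, where 15.9% of all tested genes did. In all 9 the groups overlapped, where 36.6% of all tested genes had no overlap. For 8 of the 9 the fold change was above 0, against 52.0% of all tested genes. Those 8 lay between 0.04 and 0.32 on the log2 scale, and the median of the 9 was 0.22. These values moved when libraries were left out: the median was 0.072 without SHAM 1 (6 of 9 above 0), 0.37 without SHAM 2 (9 of 9), 0.095 without CCI 3 (7 of 9) and 0.14 without CCI 2 and CCI 3 together (8 of 9). Among the presynaptic channels, Cacna1e (R-type) was the most abundant per length, at 46.2 ± 5.63 in CCI and 37.1 ± 8.53 in SHAM. It had 231, 277 and 289 CPM in CCI, against 182 and 253 CPM in SHAM (log2 fold change 0.29, SE 0.16, adjusted p = 0.420). Cacna1b, the N-type channel blocked by the analgesic ziconotide, had 166, 159 and 203 CPM in CCI, against 135 and 163 CPM in SHAM (log2 fold change 0.24, SE 0.14, adjusted p = 0.437). For Cacna1a, the P/Q-type channel, the log2 fold change was 0.25 (SE 0.21). In all 3 genes the SHAM libraries differed from each other, with SHAM 2 the higher.

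The low-voltage-activated T-type genes had the same pattern. Cacna1g had 97.3, 108 and 132 CPM in CCI, against 75.5 and 105 CPM in SHAM (log2 fold change 0.32, SE 0.18, adjusted p = 0.425). Cacna1h, the T-type channel of sensory neurons, stood at 0.22 (SE 0.14) and Cacna1i at 0.20 (SE 0.18). Of the L-type genes, Cacna1c, which links calcium entry to gene activity, had 79.6, 74.5 and 94.5 CPM in CCI, against 66.9 and 77.1 CPM in SHAM (log2 fold change 0.20, SE 0.13, adjusted p = 0.477). Cacna1d was at 0.04 (SE 0.13), and the retinal gene Cacna1f, with 14 to 24 counts in CCI and 18 to 19 in SHAM, at -0.03 (SE 0.42).

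The Cacng genes hold the gamma subunits of muscle calcium channels and the TARPs, which carry AMPA glutamate receptors to synapses. Cacng7 led them per length, at 69.2 ± 4.05 in CCI and 75.3 ± 4.38 in SHAM. In CPM it had 37.9, 32.5 and 36.0 in CCI, against 40.2 and 38.1 in SHAM (log2 fold change -0.14, SE 0.11, adjusted p = 0.560). Cacng5, a TARP like Cacng7, had 5.83, 6.31 and 5.78 CPM in CCI, against 3.18 and 4.85 CPM in SHAM (log2 fold change 0.58, SE 0.24, 95% interval 0.04 to 1.12, adjusted p = 0.279). All 3 CCI libraries were above both SHAM libraries, at a level of 70 to 159 counts. Cacng4 was 17.7 CPM in CCI 3 and 8.64 to 9.35 CPM in the other 4 libraries, and its log2 fold change was 0.44 (SE 0.31) over all 5. Cacng2, which encodes stargazin (-0.13, SE 0.20), Cacng3 (0.46, SE 0.28) and Cacng8 (0.05, SE 0.13) overlapped between groups.

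HCN channels were led by Hcn2, a channel required for inflammatory and neuropathic pain in mice. It had 186, 124 and 190.2 CPM in CCI, against 186 and 178 CPM in SHAM (log2 fold change -0.12, SE 0.18, adjusted p = 0.771). CCI 2 alone stood below the rest. Hcn3 (0.22, SE 0.17) and Hcn4 (-0.02, SE 0.15) averaged 5.83 and 3.53 per length over the 5 libraries, against 83.6 for Hcn2.

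**Figure D5:**
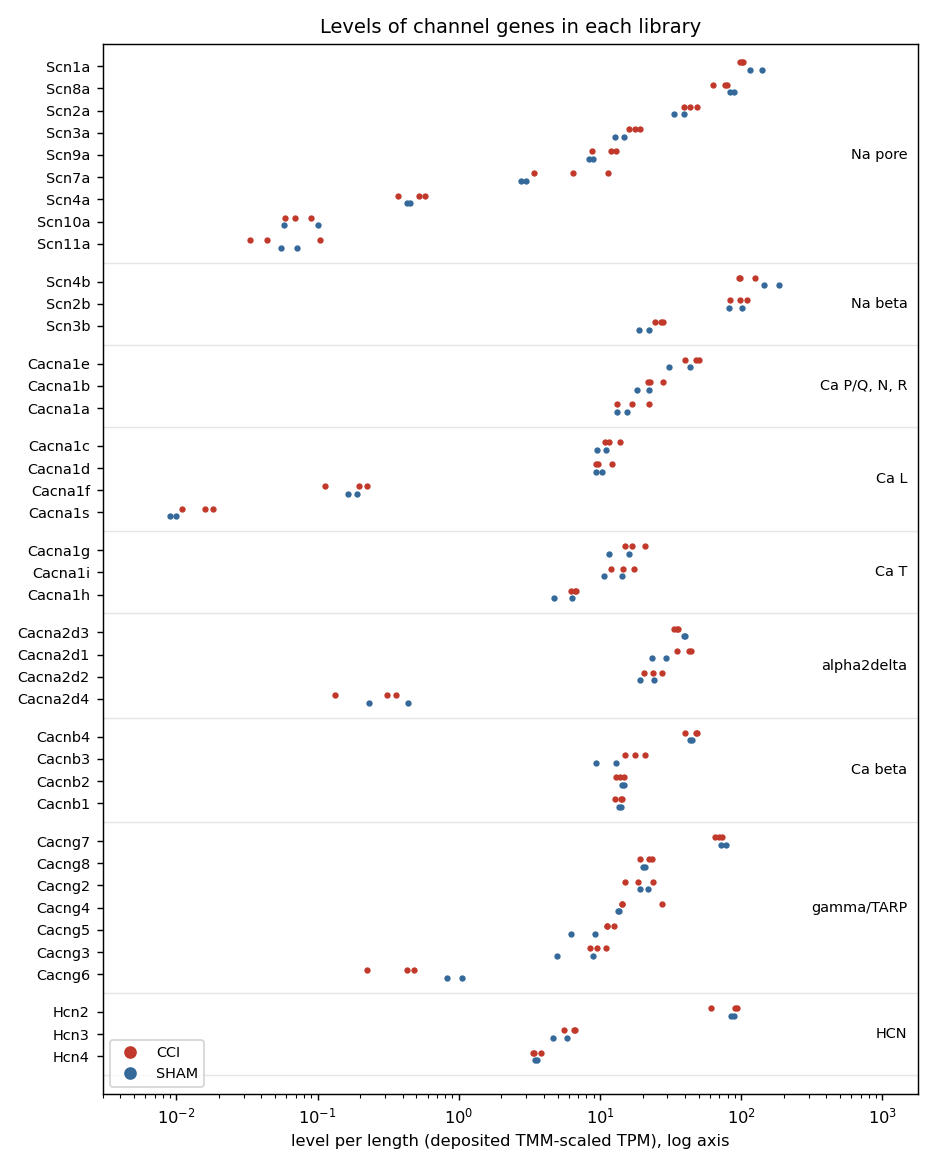
Level per length (x axis, deposited TMM-scaled TPM, log axis) of 40 channel genes in each library, CCI in red above SHAM in blue, grouped by subfamily and ordered by mean. Scn4b, at 107 in CCI and 166 in SHAM on average, is the highest drawn, and Scn10a, Scn11a and Cacna1s are below 0.2 in every library; Cacng1 is at 0 and not drawn.

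The 5 members that were not tested are known from nociceptors or muscle. Scn10a and Scn11a encode the tetrodotoxin-resistant sodium channels of nociceptive sensory neurons. Scn10a had 8.09, 8 and 9 counts in CCI, against 7 and 11 counts in SHAM, and Scn11a had 11, 4 and 4 counts in CCI, against 6 and 7 counts in SHAM. Cacna1s, the skeletal muscle L-type pore, had 1 or 2 counts in every library, and Cacng6 had 5, 5 and 2 counts in CCI and 11 and 8 in SHAM. Cacng1, the muscle gamma subunit, was not detected, which allows up to 0.127 to 0.145 CPM in the CCI libraries and 0.137 to 0.15 CPM in the SHAM libraries. These limits are 3 counts over the library total without TMM scaling, unlike the other CPM here, and cover counting error only. Among 8 skeletal muscle markers present, 4 were tested and none was called, with sums of 78.4 to 134 CPM in CCI and 125 to 147 CPM in SHAM. Most of this sum was Acta1, at 72.3 to 128 CPM in CCI and 119 to 141 CPM in SHAM. Of 8 dorsal root ganglion markers, Mrgprd was at 0 throughout, 7 were tested and none was called, with sums of 110 to 298 CPM in CCI and 288 to 367 CPM in SHAM. Most of this sum was Prph, at 235, 56.9 and 131 CPM in CCI, against 302 and 238 CPM in SHAM.

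Genes that act with these channels were taken as a fixed list of 34, of which 31 were in the table and tested. Of these 31, 2 were called higher and none lower, where 2.58% of all tested genes were called higher and 0.259% lower. Both were among the calcium channel partners. Thrombospondins are extracellular matrix proteins that bind the alpha2delta subunit of Cacna2d1 and promote excitatory synapses. Thbs2 rose to 29.1 ± 4.75 CPM in CCI, against 12.2 ± 1.42 CPM in SHAM (log2 fold change 1.26, SE 0.17, adjusted p = 0.00428), and Thbs1 to 7.31 ± 1.41 CPM in CCI, against 3.47 ± 0.0369 CPM in SHAM (log2 fold change 1.07, SE 0.23, adjusted p = 0.0454; SD, n = 3 and 2). Thbs4 had 32, 82 and 124 counts in CCI, against 17 and 21 in SHAM, and did not pass (log2 fold change 2.04, SE 0.64, adjusted p = 0.185). In CCI 1, CCI 2 and CCI 3, Thbs2 had 24.7, 34.1 and 28.5 CPM and Thbs1 5.79, 8.58 and 7.58 CPM. This was the order of the fibroblast marker sums, while Thbs4 had that of the Schwann cell marker sums. In CCI 1 all of these genes were above both SHAM libraries, whereas both marker sums lay between the SHAM values. The part of fibroblasts or Schwann cells in the thrombospondin levels was not tested. The Thbs2 call was lost without SHAM 1 (adjusted p = 0.120) or SHAM 2 (0.0588), and in the unfiltered per-length table (0.0603). That of Thbs1 was lost without any single library except CCI 1, without CCI 2 and CCI 3 together, with limma-voom, without the robust option, with RLE scaling and in the per-length table; its adjusted p over these settings ran from 0.0502 with RLE scaling to 0.358 without SHAM 1.

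Partners of the sodium and HCN channels had no call. Fgf11, an intracellular FGF-like protein of the family that binds sodium channels, stood at -0.92 on the log2 fold change scale (SE 0.28, adjusted p = 0.171). The ubiquitin ligase gene Nedd4l, which removes sodium channels from the membrane, stood at 0.32 (SE 0.11, adjusted p = 0.212), and Sptbn4, the spectrin that anchors them at initial segments and nodes, at -0.24 (SE 0.10, adjusted p = 0.261). Pex5l, which encodes the HCN trafficking subunit, stood at -0.35 (SE 0.11, adjusted p = 0.157) and Kctd3 at -0.30 (SE 0.10, adjusted p = 0.186). Nalcn, the sodium leak channel, was 253 ± 26.7 CPM in CCI and 253 ± 8.12 CPM in SHAM (log2 fold change 0.00, SE 0.11). Over all 31 partners the median log2 fold change was 0.02.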

How the data were processed

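Estimated counts were deposited by the authors, with a row for each gene symbol. The submitters' processing notes name kallisto 0.44.0 and the build rn6. The authors also deposited a signal table, named TPM and scaled by trimmed mean of M-values (TMM) per the labels; its columns sum to 903964 to 1050110, not to a fixed total, so it is used as a signal per length. Annotation, filters and strand setting: not given in the sources used here. Groups follow the treatment label, and replicate numbers follow accession order.

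Estimated counts were rounded and fitted over all 13511 genes with 10 or more counts in at least 2 libraries (edgeR 4.0.16, R 4.3.3, TMM, robust glmQLFit, two-sided glmQLFTest, Benjamini-Hochberg). Calls needed both an adjusted p of 0.05 or less and a 1.5-fold difference or more, as the series' own text sets them. The SE comes from the log2 fold change and the square root of F, and CPM are TMM-scaled. The fit has 3 residual degrees of freedom. Estimates were fractional in 16 members (tolerance 1e-06), 15 of them tested. Those of Cacna2d1 lay at most 0.0048 from a whole number, which does not measure how many reads were divided. No 2 libraries agreed within sampling noise (chi-square per gene of 19.6 or more). Pairs that included CCI 3 stood at 198 to 242, and the other pairs at 19.6 to 58.6. The test was checked on simulated data.

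Channel genes, gene lists and tests were chosen with earlier results of these data known. Library values are given for Cacna2d1, members called or at an unadjusted p of at most 0.05, and in each subfamily the most abundant per length and the one with the smallest p; other members were named, some with library values chosen after they were seen, and a few are counted in the totals but not reported here by name. Partner genes are named where called, or among those with the smallest p (up to 3 a list). Nalcn is described, while Unc79, from the same list, had a smaller p. Other settings tried were edgeR's likelihood ratio test, DESeq2 1.42.0, limma-voom (limma 3.58.1), other scalings and filters, limma on log2 of the deposited per-length values plus 0.5 or 0.1, ribosomal RNA rows left out, and libraries left out (a group left with 1 library is assumed to vary like the other). Figures were drawn with matplotlib 3.10.9.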

Additional observations from a re-analysis of the deposited data

How the results depend on the processing

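No paired analysis was possible because the labels give no replicate numbers shared by the groups. The number of channel genes called was 3 with the likelihood ratio test, DESeq2 and library-size scaling (2 higher, 1 lower each) and 1 (higher) without a low-count filter. Leaving out 1 library gave 0 to 4 channel genes called, 0 to 3 higher and 0 to 1 lower, and 3 to 12 at an unadjusted p of at most 0.05; with CCI 2 and CCI 3 both left out the last number was 5. All genes called numbered 646 with the likelihood ratio test, 614 with DESeq2, 227 in the per-length table without a filter, and 71 to 766 with 1 library left out, against 384. The log2 fold change of Cacna2d1 passed at 0.59 with the likelihood ratio test, DESeq2, library-size scaling (adjusted p = 0.0399) and no low-count filter (adjusted p = 0.0458), and ran from 0.43 to 0.76 with 1 library left out. The median of the channel genes ran from 0.050 to 0.28 with 1 library left out. The cause of these moves was not tested.

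Members close to 0 changed sign in places. Cacnb4 was at 0.00 with DESeq2 (-0.000655), limma-voom (-0.000114) and RLE scaling (-0.000644), and Hcn4 at 0.000802 and 0.000644 in the per-length table with pseudocounts of 0.5 (with or without a filter) and 0.1. With CCI 2 and CCI 3 left out, Cacna1d was at -0.066, Cacna1f at 0.32, Cacnb4 at -0.18, Cacng8 at -0.12, Hcn2 at 0.023 and Hcn4 at 0.10. With 1 library left out, ranges that crossed 0 were -0.088 to 0.11 for Cacna1d, -0.25 to 0.23 for Cacna1f, 0.00 to 0.42 for Cacna1i (lowest -0.00149), -0.036 to 0.28 for Cacna2d2, -0.73 to 0.19 for Cacna2d4, -0.078 to 0.0051 for Cacnb1, -0.044 to 0.084 for Cacnb4, -0.31 to 0.028 for Cacng2, -0.019 to 0.12 for Cacng8, -0.23 to 0.052 for Hcn2, -0.095 to 0.019 for Hcn4, -0.10 to 0.22 for Scn2b and -0.016 to 0.30 for Scn4a. With 3 and 2 libraries a group, small differences in these genes cannot be resolved.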

Other observations

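Several channel genes lie side by side in the genome. In the RefSeq gene table of GRCr8, a later build than that of the files and used here for gene order only, Scn3a and Scn2a are adjacent, and Scn1a, Scn9a and Scn7a follow in a row after 4 other protein-coding genes. Across this cluster the log2 fold change was 0.32 (SE 0.12) for Scn3a, 0.24 (SE 0.12) for Scn2a, -0.38 (SE 0.12) for Scn1a, 0.35 (SE 0.16) for Scn9a and 1.26 (SE 0.55) for Scn7a, none of which passed the test. Scn2b and Scn4b are also adjacent, at 0.05 (SE 0.14) and -0.65 (SE 0.16), as are Cacng4 and Cacng5, at 0.44 (SE 0.31) and 0.58 (SE 0.24), and Cacng8 and Cacng7, at 0.05 (SE 0.13) and -0.14 (SE 0.11). Some adjacent pairs had the same sign and others opposite signs. All 44 symbols matched that table. Differences between neighbours were not tested.

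The make-up of the calcium channel pore genes differed little between the groups. Per length, Cacna1e took 31.1% ± 3.08 of their summed level in CCI and 29.7% ± 1.70 in SHAM, Cacna1b 16.1% ± 0.396 in CCI and 16.3% ± 0.653 in SHAM, and Cacna1g 11.8% ± 0.604 in CCI and 11.1% ± 0.622 in SHAM (SD, n = 3 and 2). Of the 10 pore genes only Cacna1d had shares that did not overlap, at 6.69% to 7.10% in CCI and 7.46% to 8.65% in SHAM.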
